A study of Mus musculus with 9 samples.

Results

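The genes described here are 32 mouse genes of cholesterol synthesis, uptake and efflux, taken by symbol from a table of 28956 gene symbols. All 32 were present as single entries, and all 32 were among the 17582 genes that passed the filter on low counts. They comprise 4 genes of SREBP2 control, 7 of the mevalonate and isoprenoid steps, 12 of the squalene and sterol steps, 3 of uptake and intracellular transfer, 2 of esterification and 4 of efflux. RNA was sequenced with an mRNA kit from pieces of whole liver of C57BL6J mice aged 8 weeks, 24 h into the experiment by the series title. In the APAP_MSC group, mice had received APAP (commonly acetaminophen, a drug toxic to hepatocytes in overdose) at 300 mg/kg intraperitoneally and then, 90 min later, 500000 MSC intravenously. The APAP_HDF group had received the same APAP and 500000 HDF by the same route and at the same time. The APAP group had received APAP at the same dose, and the labels name no cells for it. Each group had 3 libraries, and every mouse had thus received APAP: no untreated liver is among the groups. The labels give hepatocytes as the cell type although the material was a piece of whole liver. They expand neither MSC nor HDF (commonly mesenchymal stromal cells and human dermal fibroblasts) and state neither the source of the cells nor that the libraries of a group are separate animals. The p-values therefore cover the spread between these libraries, which may be technical.

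Cholesterol is made from acetyl-CoA through mevalonate, farnesyl diphosphate, squalene and lanosterol. The enzymes of this route are transcribed under SREBP2, a membrane-bound factor that SCAP escorts out of the endoplasmic reticulum when sterols are low and that INSIG proteins hold back when sterols are high. Surplus sterol instead activates LXR, which raises the exporters ABCA1, ABCG1, ABCG5 and ABCG8 and the ubiquitin ligase MYLIP, which marks lipoprotein receptors for breakdown. In liver, cholesterol is also esterified for storage and secretion, turned into bile acids or pumped into bile.

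Total counts lay between 53267231 and 63175573 per library, and each of the 32 genes had at least 124 counts in every library. Levels are CPM, a gene's count relative to the TMM-scaled library size. They were not divided by transcript length and are compared between libraries, not between genes. Sums, shares and ratios over genes are likewise compared only between libraries, and long or abundant transcripts weigh more in the sums. The hepatocyte label was checked against 10 hepatocyte markers, whose summed level was 129369 to 146640 CPM in APAP_MSC, 116460 to 153161 CPM in APAP_HDF and 124313 to 150853 CPM in APAP. Alb alone had means of 72632, 75868 and 73850 CPM in these groups, in that order. The sums therefore say little of the less abundant markers. Markers of sinusoidal endothelium, Kupffer cells and other macrophages were detected in all libraries too, as in whole liver. Libraries are numbered 1 to 3 in column order within a group. APAP_HDF library 1 and APAP_MSC library 3 stood apart from the other libraries of their groups in the synthesis enzymes, as described next.

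Promoter sequences are shown for 5 of the genes on which the results turn, as the 250 bases before the RefSeq start site (GRCm38.p6), 5′ to 3′ on the gene's own strand. Hmgcs1 is shown as an enzyme gene with a sterol regulatory element, the motif that SREBP proteins bind, and Tm7sf2, Ebp, Insig2 and Mylip because their transcripts differed between groups. Capitals mark the CCAAT box of the factor NF-Y, read as CCAAT or ATTGG, and in Hmgcs1 also the element TCACCCCAC.
Hmgcs1 (chr13:119690101-119690350, plus strand): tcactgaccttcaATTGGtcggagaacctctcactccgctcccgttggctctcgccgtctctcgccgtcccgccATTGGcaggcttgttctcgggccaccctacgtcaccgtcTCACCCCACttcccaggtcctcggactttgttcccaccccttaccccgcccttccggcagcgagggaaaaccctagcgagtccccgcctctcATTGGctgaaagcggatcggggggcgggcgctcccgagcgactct
Tm7sf2 (chr19:6067851-6068100, minus strand): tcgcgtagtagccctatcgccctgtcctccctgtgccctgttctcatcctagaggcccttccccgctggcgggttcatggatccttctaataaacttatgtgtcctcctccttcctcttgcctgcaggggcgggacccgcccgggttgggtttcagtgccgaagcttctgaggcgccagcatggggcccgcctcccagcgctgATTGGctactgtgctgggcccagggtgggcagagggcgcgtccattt
Ebp (chrX:8193513-8193762, minus strand): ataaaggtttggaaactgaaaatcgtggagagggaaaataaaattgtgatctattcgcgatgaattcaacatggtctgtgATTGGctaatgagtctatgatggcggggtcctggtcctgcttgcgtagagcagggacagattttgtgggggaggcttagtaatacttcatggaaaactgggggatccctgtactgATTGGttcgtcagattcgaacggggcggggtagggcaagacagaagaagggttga
Insig2, 1 of 3 windows (chr1:121332590-121332839, minus strand): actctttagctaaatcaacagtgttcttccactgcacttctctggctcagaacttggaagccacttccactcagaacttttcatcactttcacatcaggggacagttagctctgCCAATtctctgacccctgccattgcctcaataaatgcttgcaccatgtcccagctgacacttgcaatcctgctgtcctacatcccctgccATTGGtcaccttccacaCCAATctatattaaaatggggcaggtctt
Mylip (chr13:45389492-45389741, plus strand): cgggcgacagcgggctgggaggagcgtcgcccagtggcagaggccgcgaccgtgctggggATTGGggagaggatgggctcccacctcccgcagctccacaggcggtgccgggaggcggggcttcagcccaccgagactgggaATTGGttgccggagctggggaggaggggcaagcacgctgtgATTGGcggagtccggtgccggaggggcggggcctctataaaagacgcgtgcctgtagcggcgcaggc

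Promoter windows were found for 25 of the 32 genes, 32 windows in all. A CCAAT box on either strand was present in 21 of the 32 windows, or 65.6%, against 33.8% of all 32851 windows of the same length. It was present in 15 of the 16 synthesis enzyme genes with a window, Acat2 being the exception. The Sp1 box GGGCGG was present in 23 of the 32 windows, or 71.9%, against 32.7% of all windows. The sterol regulatory motif TCACNCCAC was present in Hmgcs1 alone among the 25 genes and in 1.05% of all windows. The LXR direct repeat DR4, in its strict form, was present in none of the 25 and in 0.0152% of all. Each motif was searched on both strands, and a match or its absence concerns only these letters in these windows.

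Within their groups, nearly all of the 19 synthesis enzymes were lowest in APAP_MSC library 3 and highest in APAP_HDF library 1. Even in APAP_MSC library 3, Tm7sf2, Ebp and Sc5d lay above every APAP library. Their summed level was 4773, 4619 and 2924 CPM in APAP_MSC libraries 1 to 3, 6089, 3331 and 3307 CPM in APAP_HDF libraries 1 to 3, and 4124, 4401 and 4463 CPM in APAP libraries 1 to 3. APAP_MSC library 3 and APAP_HDF libraries 2 and 3 were low, APAP_HDF library 1 was the highest of all, and the 3 groups overlapped. The group means were 4105 ± 1026 CPM in APAP_MSC, 4242 ± 1599 CPM in APAP_HDF and 4329 ± 181 CPM in APAP (SD, n = 3), closer to each other than the libraries within either cell-treated group.

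**Figure D1:**
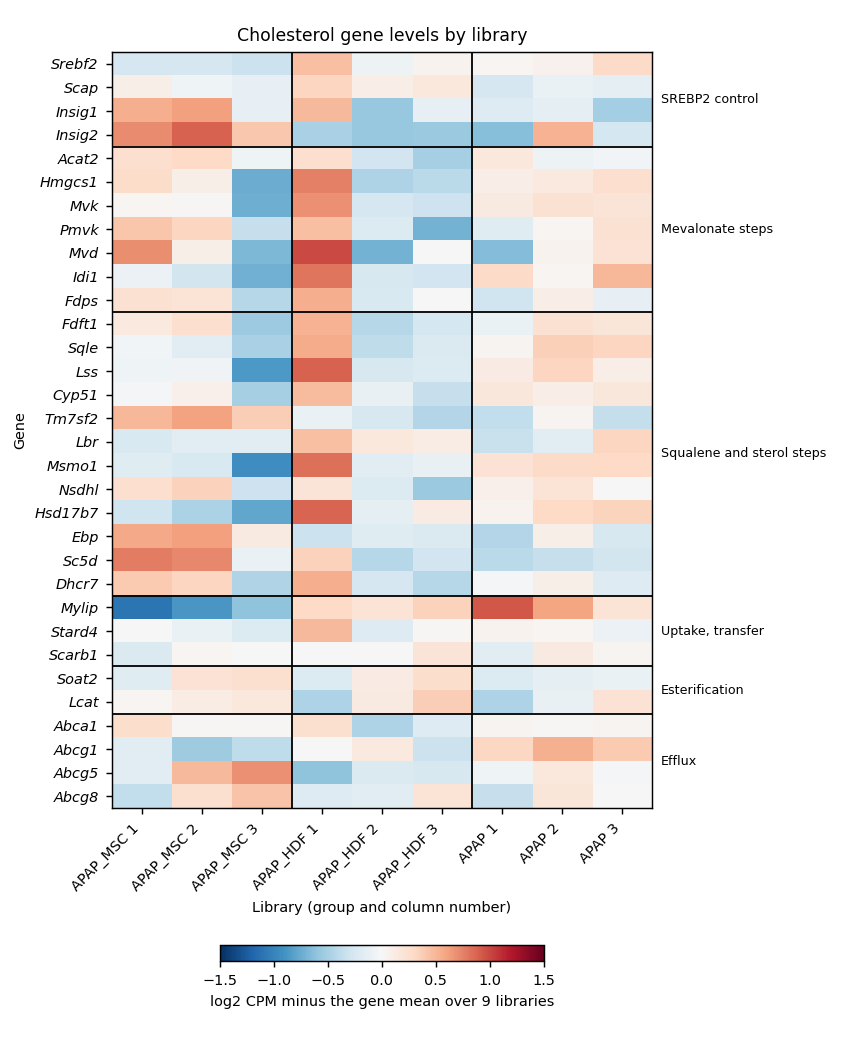
Level of each of the 32 genes (rows, by role) in each of the 9 libraries (columns), as log2 CPM minus the gene's mean over the 9 libraries, red above and blue below the mean. Most synthesis enzymes are reddest in APAP_HDF library 1 and bluest in APAP_MSC library 3, while Mylip is blue in all 3 APAP_MSC libraries.

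Of these 19 enzymes, 18 had their lowest APAP_MSC level in library 3, where 34.7% of all tested genes had theirs, and Lbr was the exception. In APAP_HDF, 18 of 19 were highest in library 1, against 38.5% of all tested genes, and Ebp was the exception. The lowest APAP_HDF level was in library 2 for 9 enzymes and in library 3 for 9. In APAP, 13 were lowest in library 1, where 37.5% of all tested genes had their lowest level, 3 in library 2 and 3 in library 3. The highest APAP level was in library 2 for 9 enzymes, in library 3 for 9 and in library 1 for 1. Within APAP_MSC, the coefficient of variation of the enzymes had a median of 23.6%, against 7.63% over the 8194 genes with a mean of at least 10 CPM. Within APAP_HDF it was 37.7% against 9.33%, and within APAP 10.3% for the enzymes and 10.3% for those genes. In each cell-treated group 18 of the 19 enzymes varied more than the median of those genes, and in APAP 9 did. The exceptions were Lbr in APAP_MSC and Ebp in APAP_HDF. Those genes were not matched to the enzymes in abundance. The 2 cholesterol esterification genes, Soat2 and Lcat, did not share this order and were lowest in library 1 and highest in library 3 of each group. APAP_HDF library 1 also had the lowest summed hepatocyte markers of the 9 libraries, 116460 CPM, and APAP_MSC library 3 the lowest of its group, 129369 CPM. The part of these differences in the enzyme levels was not tested.

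**Figure D2:**
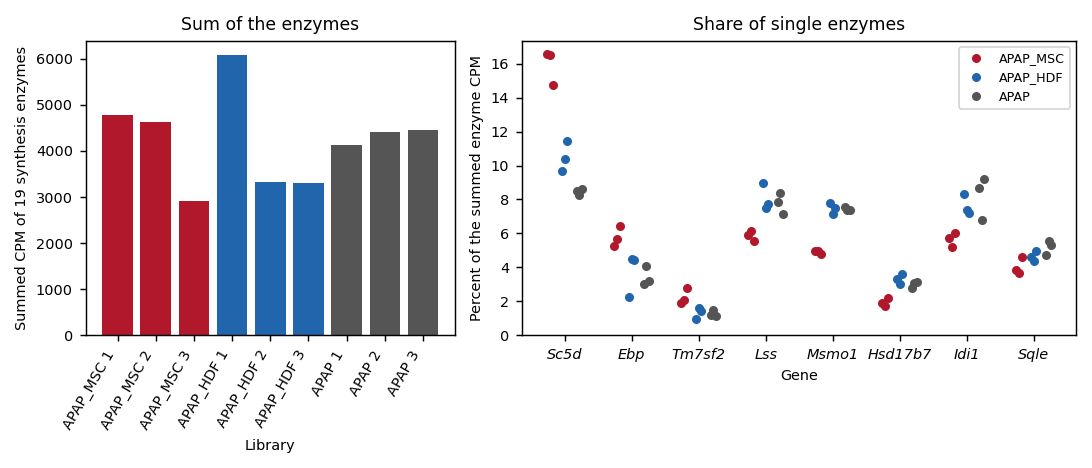
Left, the summed CPM of the 19 synthesis enzymes in each library. Right, the share of that sum held by each of 8 enzymes, 1 point per library, where Sc5d holds 14.8% to 16.6% in APAP_MSC, 9.71% to 11.4% in APAP_HDF and 8.28% to 8.59% in APAP.

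The first question is how the 32 genes differed after APAP when MSC were given. In APAP_MSC, the late sterol enzymes Tm7sf2 and Ebp were higher and the receptor-degrading ligase Mylip and the exporter Abcg1 were lower. The remaining 28 genes did not pass (edgeR quasi-likelihood test, called at a p under 0.05 after Benjamini-Hochberg adjustment over 17582 genes). The 2 higher and 2 lower genes stand beside 2.83% of all tested genes called higher and 3.54% called lower. At an unadjusted p under 0.05, 10 of the 32 differed, beside 22.9% of all tested genes. The median log2 fold change of the 32 genes was 0.05, with 17 above 0 and 15 below, and that of all tested genes -0.01. The median of the 32 genes was -0.03 without APAP_MSC library 1, -0.02 without APAP_MSC library 2 and 0.12 without APAP_MSC library 3. Without regard to the test, 4 of the 32 had all APAP_MSC libraries above all APAP libraries and 10 had them all below, beside 13.7% and 14.7% of all tested genes. The 4 were Insig1, Tm7sf2, Ebp and Sc5d, and the 10 were Srebf2, Mvk, Idi1, Sqle, Lss, Cyp51, Msmo1, Hsd17b7, Mylip and Abcg1. The count of 4 genes called after adjustment was 1 without APAP_MSC library 1, 1 without APAP_MSC library 2 and 10 without APAP_HDF library 1. That last library is in neither of these groups. Over all tested genes the calls moved the same way, to 258, 97 and 1753 in the same order, against 1121. The number called among the 32 was 7 with DESeq2 and 7 when only the 6 libraries compared were fitted. Over all genes, 1938 and 1413 were called in these fits, in that order.

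**Figure D3:**
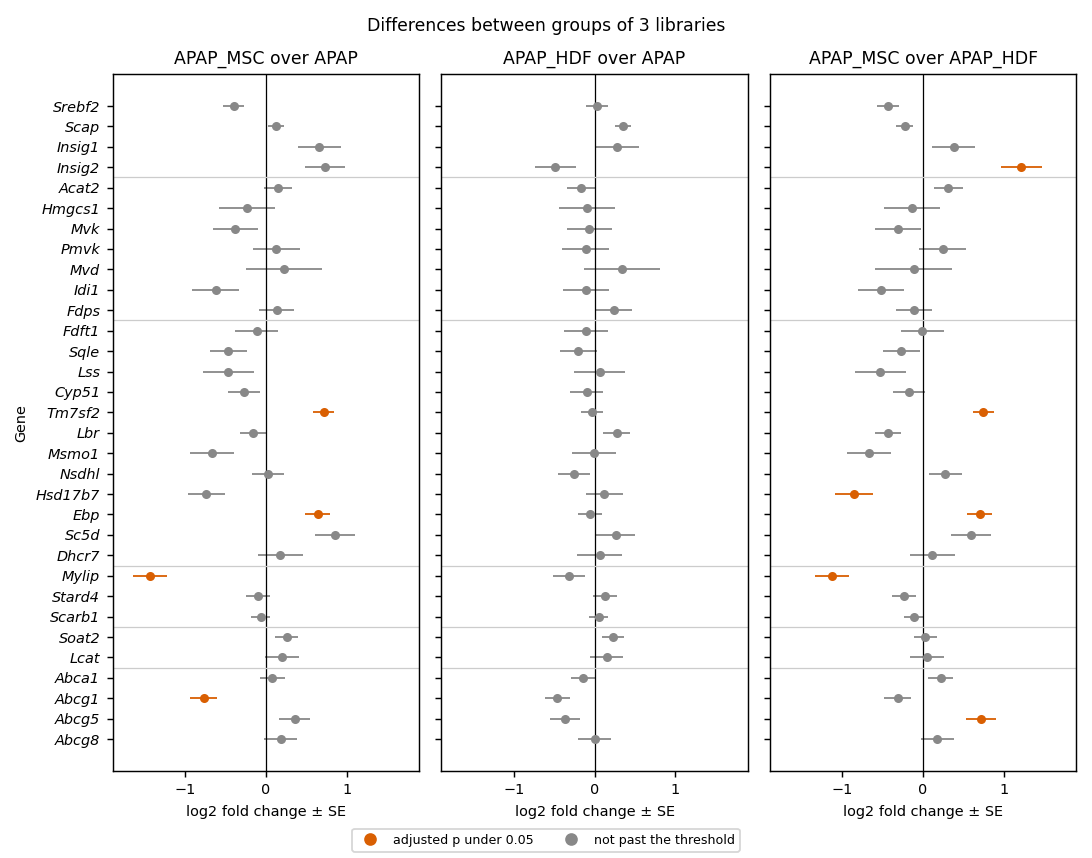
Log2 fold change (point) with its SE (bar) for each of the 32 genes in the 3 comparisons, positive values meaning higher in the group named first, and orange marking an adjusted p under 0.05. Orange points number 4, 0 and 6 from left to right, and Mylip is the leftmost gene of both outer panels.

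Tm7sf2 encodes a sterol reductase that acts on the product of Cyp51. It had 89.8, 96.7 and 81.9 CPM in the APAP_MSC libraries, 59.3, 53.7 and 47.0 CPM in the APAP_HDF libraries and 49.0, 65.2 and 49.6 CPM in the APAP libraries. Each APAP_MSC library lay above each of the other 6. The level was 1.64-fold that of APAP (log2 fold change 0.71 ± 0.13 SE, edgeR adjusted p = 0.0165) and 1.68-fold that of APAP_HDF (0.75 ± 0.13, adjusted p = 0.00813). The call against APAP was lost without APAP_MSC library 1 or 2, with an adjusted p of up to 0.0842, and that against APAP_HDF held in all 15 alternatives. Lbr, the lamin B receptor, which carries the same reductase activity, lay at 12.2 to 12.8 CPM in APAP_MSC, 15.4 to 19.5 CPM in APAP_HDF and 11.3 to 17.9 CPM in APAP, and did not pass in any comparison. The ratio of Tm7sf2 to Lbr CPM was 6.38 to 7.65 in APAP_MSC, 3.05 to 3.36 in APAP_HDF and 2.77 to 5.09 in APAP, so that the APAP_MSC libraries did not overlap the rest.

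Ebp encodes the sterol isomerase that moves the ring double bond late in the pathway. Its level was 252, 261 and 187 CPM in the APAP_MSC libraries, 136, 150 and 146 CPM in the APAP_HDF libraries and 125, 180 and 143 CPM in the APAP libraries. The lowest APAP_MSC library, library 3, was close to the highest APAP library, and the groups did not overlap. Ebp was 1.56-fold that of APAP (log2 fold change 0.64 ± 0.15, adjusted p = 0.034) and 1.62-fold that of APAP_HDF (0.70 ± 0.15, adjusted p = 0.0191). Against APAP the call was lost without APAP library 1 or 3, APAP_MSC library 1 or 2, or APAP_HDF library 2, with an adjusted p of up to 0.152. Against APAP_HDF it was lost without APAP_MSC library 1 or 2 or APAP_HDF library 1, with an adjusted p of up to 0.0954.

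Mylip, the ubiquitin ligase, showed the largest difference from APAP of the 32 genes. It was measured at 2.29, 2.68 and 3.24 CPM in the APAP_MSC libraries, 6.06, 5.66 and 6.25 CPM in the APAP_HDF libraries and 9.36, 7.37 and 5.64 CPM in the APAP libraries. The highest APAP_MSC library was well below the lowest of the other 6. Mylip was 2.71-fold lower in APAP_MSC than in APAP (log2 fold change -1.44 ± 0.21, adjusted p = 0.0058) and 2.18-fold lower than in APAP_HDF (-1.13 ± 0.21, adjusted p = 0.00986). The call against APAP held in all 15 alternatives, and that against APAP_HDF was lost without APAP_MSC library 2 (adjusted p = 0.0593).

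Abcg1 encodes an exporter of sterol to high-density lipoprotein that is abundant in macrophages. Its level was 5.87, 4.59 and 5.07 CPM in the APAP_MSC libraries, 6.67, 7.33 and 5.29 CPM in the APAP_HDF libraries and 8.24, 9.61 and 8.72 CPM in the APAP libraries. Both cell-treated groups lay wholly below APAP and overlapped each other. Against APAP the difference was 1.71-fold lower in APAP_MSC (log2 fold change -0.77 ± 0.16, adjusted p = 0.0218), and in APAP_HDF it did not pass (-0.46 ± 0.16, adjusted p = 0.535). The APAP_MSC call was lost without APAP library 2 or any single APAP_MSC library, with an adjusted p of up to 0.119. Of 13 monocyte and macrophage markers, 6 were lower and 0 higher in APAP_MSC than in APAP, and their summed level was 149 to 170 CPM in APAP_MSC, 149 to 200 CPM in APAP_HDF and 189 to 271 CPM in APAP. Spp1, which the cholangiocyte list holds too, made up 78.6 to 84.8 CPM of that sum in APAP_MSC, 41.6 to 44.7 CPM in APAP_HDF and 51.9 to 112 CPM in APAP. Without it the sums were 66.5 to 91.2 CPM in APAP_MSC, 107 to 156 CPM in APAP_HDF and 137 to 202 CPM in APAP, so that APAP_MSC lay below both other groups, a split made after the values were seen. None of the 13 was at 0 in any library. Of 10 sinusoidal endothelial markers, 3 were lower and 0 higher, with sums of 177 to 202 CPM in APAP_MSC, 228 to 304 CPM in APAP_HDF and 238 to 340 CPM in APAP. Lower calls also numbered 3 of 5 tested neutrophil markers and 2 of 10 hepatic stellate cell markers, while 1 of 4 tested erythroid markers was higher. Of 10 hepatocyte markers 0 were called. In APAP_MSC, 4 of those 10 lay above all APAP libraries and 0 below, beside 13.7% and 14.7% of all tested genes. Among 9 Kupffer cell markers 0 were called. All 9 had log2 fold changes below 0, with a median of -0.58 in APAP_MSC and -0.76 in APAP_HDF. Over all tested genes, 3.54% were called lower and 2.83% higher in APAP_MSC. The part of these cell types in the Abcg1 and Mylip differences was not tested, and in whole tissue fewer cells of a type and less RNA per cell cannot be told apart.

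**Figure D4:**
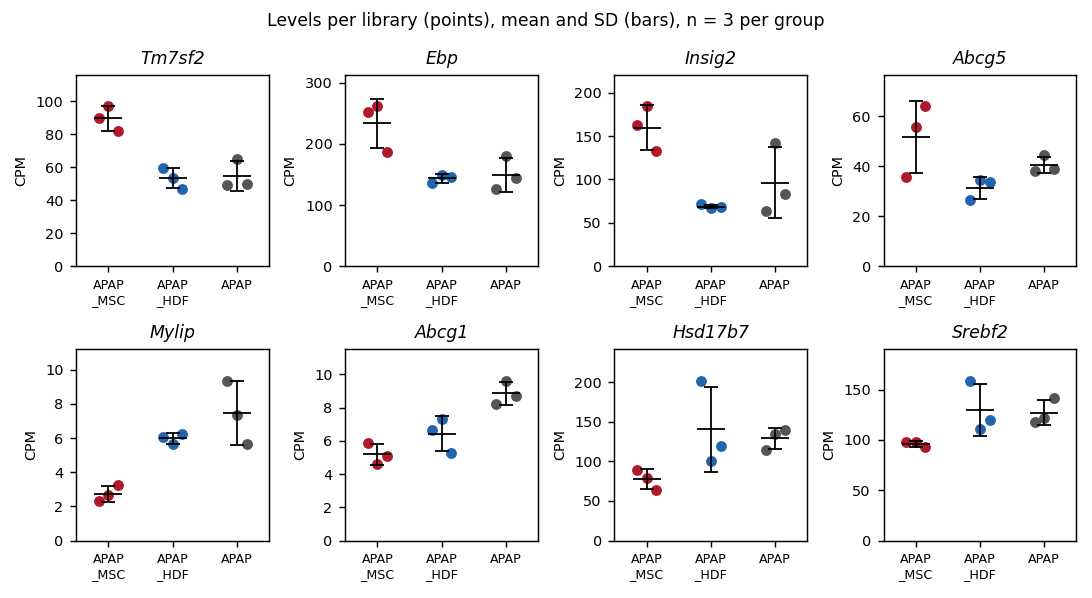
CPM per library (points) with the mean and SD of each group of 3 (bars) for 8 of the 32 genes, on axes that start at 0. The APAP_MSC points lie above all others for Tm7sf2 and Ebp and below all others for Mylip, Hsd17b7 and Srebf2.

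The SREBP2 control genes did not pass in the comparison of APAP_MSC with APAP. Srebf2, which encodes SREBP2 itself, had 97.8, 97.6 and 92.9 CPM in APAP_MSC, 159, 110 and 120 CPM in APAP_HDF and 118, 122 and 141 CPM in APAP. All 3 APAP_MSC libraries lay below the other 6. The log2 fold change was -0.40 ± 0.13 against APAP (adjusted p = 0.0968) and -0.43 ± 0.13 against APAP_HDF (adjusted p = 0.0663). It passed against APAP with the 6 libraries alone and without APAP_HDF library 1, where the smallest adjusted p was 0.0251, and against APAP_HDF with DESeq2 (adjusted p = 0.0415). Insig1, an SREBP2 target whose product retains SCAP, had 580, 610 and 365 CPM in APAP_MSC, 558, 269 and 366 CPM in APAP_HDF and 346, 359 and 278 CPM in APAP. The APAP_MSC libraries lay above those of APAP but overlapped those of APAP_HDF (log2 fold change against APAP 0.66 ± 0.27, adjusted p = 0.173). Scap, the escort itself, lay at 91.3 to 105 CPM in APAP_MSC, 106 to 125 CPM in APAP_HDF and 83.6 to 93.0 CPM in APAP, and did not pass in any comparison.

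Insig2, the INSIG gene that is not driven by SREBP2 and whose liver transcript is known to rise in fasting, had 163, 184 and 132 CPM in APAP_MSC, 71.2, 67.2 and 68.0 CPM in APAP_HDF and 63.9, 143 and 82.8 CPM in APAP. The APAP_HDF libraries were all low and tightly grouped, and APAP library 2 lay within the APAP_MSC range. Insig2 was 2.32-fold higher in APAP_MSC than in APAP_HDF (log2 fold change 1.22 ± 0.25, adjusted p = 0.0197), and its difference from APAP did not pass (0.73 ± 0.25, adjusted p = 0.117). The call against APAP_HDF was lost without APAP_MSC library 1 or 2, without any single APAP_HDF library or with no filter on low counts, with an adjusted p of up to 0.0819. Against APAP it passed without APAP library 2 and with DESeq2, where the smallest adjusted p was 0.0106.

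None of the 7 mevalonate and isoprenoid genes passed in any comparison with all libraries. Without APAP_HDF library 1, Idi1 passed against APAP (edgeR adjusted p = 0.0389) and Acat2 against APAP_HDF (adjusted p = 0.0397). Hmgcs1, which encodes the synthase of HMG-CoA, had 825, 719 and 405 CPM in APAP_MSC, 1147, 491 and 514 CPM in APAP_HDF and 726, 753 and 812 CPM in APAP. The APAP libraries lay within the range of both other groups. Idi1, the isomerase of isopentenyl diphosphate, had 274, 241 and 177 CPM in APAP_MSC, 506, 246 and 239 CPM in APAP_HDF and 357, 298 and 411 CPM in APAP. All APAP_MSC libraries lay below those of APAP (log2 fold change -0.63 ± 0.29, adjusted p = 0.235). The kinases Mvk and Pmvk, the decarboxylase Mvd, the farnesyl diphosphate synthase Fdps and the thiolase Acat2 had log2 fold changes between -0.38 for Mvk and 0.22 for Mvd against APAP. The SE of Mvd was 0.47, the largest of the 32 genes. Fdps shares 77.4% of its exon bases with Gm43738 on the same strand in the GENCODE M21 annotation, so its reads are uncertain to that extent.

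In the squalene and sterol branch, 2 of 12 genes passed against APAP, both higher, beside 2.83% of all tested genes called higher. Against APAP_HDF, 2 were higher and 1 lower, beside 4.9% and 3.99% of all tested genes. Besides Tm7sf2 and Ebp, Sc5d, the desaturase that acts after Ebp, had 791, 762 and 432 CPM in APAP_MSC, 591, 346 and 378 CPM in APAP_HDF and 349, 364 and 383 CPM in APAP. Every APAP_MSC library lay above every APAP library, and the difference did not pass (log2 fold change 0.86 ± 0.25, adjusted p = 0.066). It passed without APAP_MSC library 3, without APAP_HDF library 1, with DESeq2 and with the 6 libraries alone, where the smallest adjusted p was 0.00569, and against APAP_HDF without APAP_MSC library 3 (adjusted p = 0.0422). Hsd17b7, the ketosteroid reductase that completes removal of the methyl groups, had 89.6, 79.0 and 64.0 CPM in APAP_MSC, 202, 101 and 120 CPM in APAP_HDF and 114, 135 and 139 CPM in APAP. It was 1.82-fold lower in APAP_MSC than in APAP_HDF (log2 fold change -0.86 ± 0.23, adjusted p = 0.0487), a call lost in 10 of 15 alternatives, with an adjusted p of up to 0.158. Against APAP it did not pass (-0.74 ± 0.23, adjusted p = 0.0899), though the groups did not overlap. It passed with DESeq2, with the 6 libraries alone and without APAP_HDF library 1, where the smallest adjusted p was 0.00925. The methyl oxidase gene Msmo1, which acts at the same step, had a log2 fold change of -0.67 ± 0.27 against APAP (adjusted p = 0.177), and likewise had no overlap. Without APAP_HDF library 1, Msmo1 (adjusted p = 0.0344) and Sqle (adjusted p = 0.0495) passed against APAP. Squalene synthase (Fdft1), squalene epoxidase (Sqle), lanosterol synthase (Lss), the demethylase Cyp51, the dehydrogenase Nsdhl and the final reductase Dhcr7 had log2 fold changes between -0.47 for Sqle and Lss and 0.18 for Dhcr7. Among them, the APAP_MSC libraries lay below all APAP libraries for Sqle, Lss and Cyp51.

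Because the summed enzyme level differed between libraries of a group, each was also expressed as a percentage of the summed CPM of the 19 enzymes in its library, a description chosen after the values had been seen. On that scale, 6 of 19 enzymes lay higher and 6 lower in all APAP_MSC libraries than in all APAP libraries. Relative to the same sum, 11.1% of all tested genes lay higher and 4.96% lower without overlap, against 13.7% and 14.7% on undivided CPM. Dividing by the sum takes out variation that the enzymes share between libraries and adds it to other genes. The divided shares are therefore not a like measure for the enzymes, and no excess is read from them. The higher enzymes were Sc5d, Ebp, Tm7sf2, Dhcr7, Pmvk and Fdps, and the lower ones Lss, Msmo1, Hsd17b7, Idi1, Sqle and Mvk. Sc5d held 16.6%, 16.5% and 14.8% of the sum in the APAP_MSC libraries, 9.71%, 10.4% and 11.4% in the APAP_HDF libraries and 8.47%, 8.28% and 8.59% in the APAP libraries. Msmo1 held 4.94%, 4.95% and 4.81% in APAP_MSC, 7.82%, 7.12% and 7.51% in APAP_HDF and 7.56%, 7.40% and 7.35% in APAP. Both enzymes thus had shares in the APAP_MSC libraries, library 3 included, that lay outside those of the other 6 libraries. Between APAP_MSC and APAP_HDF, 5 enzymes lay higher and 5 lower, beside 5.73% and 3.44% of all tested genes (16.8% and 16.4% undivided). Between APAP_HDF and APAP, Sc5d lay higher and no enzyme lower, beside 1.4% and 2.3% of all tested genes (5.66% and 6.08% undivided). Shares of 1 sum depend on each other, so these counts are not independent between enzymes.

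The next question is how the same genes differed after APAP when HDF were given. None of the 32 genes passed with edgeR, DESeq2 or limma-voom, beside 0% of all tested genes in the edgeR test. At an unadjusted p under 0.05, 2 of the 32 genes differed, Abcg1 and Scap, beside 8.78% of all tested genes. Scap had 125, 106 and 111 CPM in APAP_HDF, all above the 83.6, 93.0 and 90.9 CPM of APAP (log2 fold change 0.35 ± 0.10, adjusted p = 0.491). All APAP_HDF libraries lay above all APAP libraries for 1 of the 32 genes, Scap, and below them for 2, Abcg1 and Abcg5, beside 5.66% and 6.08% of all tested genes. The fold changes of the 32 genes had a median of -0.02 on the log2 scale, with SE between 0.10 and 0.47. Without APAP_HDF library 1, the median was -0.28 and 11 of the 32 genes had an unadjusted p under 0.05, while 0 passed after adjustment. Over all tested genes 2509 had an unadjusted p under 0.05 in that fit, against 1544 with all libraries. The median was 0.05 without APAP library 2, 0.09 without APAP_HDF library 2 and 0.08 without APAP_HDF library 3. This comparison and that of APAP_MSC with APAP share the APAP libraries.

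The comparison of APAP_MSC with APAP_HDF sets both infused cells side by side. Of the 32 genes, Tm7sf2, Ebp, Insig2 and Abcg5 were higher and Mylip and Hsd17b7 lower in APAP_MSC. These 4 higher and 2 lower genes stand beside 4.9% of all tested genes called higher and 3.99% called lower, 8.89% in all. At an unadjusted p under 0.05, 11 of the 32 differed, beside 25.7% of all tested genes. The median log2 fold change of the 32 genes was -0.11, and that of all tested genes -0.02. It was 0.11 without APAP_HDF library 1 and 0.03 without APAP_MSC library 3, so its sign rested on those libraries. The count was 3 without APAP_MSC library 1, 1 without APAP_MSC library 2, 3 without APAP_HDF library 1 and 3 without APAP_HDF library 3, while over all tested genes 1563 calls became 624, 361, 984 and 1061 in the same order. Of 7 cholangiocyte markers, 5 were higher and 0 lower in APAP_MSC, with sums of 118 to 133 CPM in APAP_MSC and 100.2 to 105 CPM in APAP_HDF. Spp1, which this list shares with the macrophage list, made up 78.6 to 84.8 CPM and 41.6 to 44.7 CPM of these sums, in that order. The order of the sums rested on that gene. Of 4 tested erythroid markers 1 was higher and 0 lower, with sums of 130 to 221 CPM in APAP_MSC and 69.8 to 86.7 CPM in APAP_HDF. Of the 13 macrophage markers 1 was higher and 3 lower, and of the 10 endothelial markers 0 were higher and 3 lower. Of the 10 hepatocyte markers 1, Cps1, was higher and 0 lower. The part of these cell types in the differences of the 32 genes was not tested. All 3 APAP_MSC libraries lay above all 3 APAP_HDF libraries for 4 of the 32 genes and below them for 6, beside 16.8% and 16.4% of all tested genes.

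Abcg5 and Abcg8 encode the partners of the heterodimer that pumps sterols into bile, and their RefSeq start sites lie head to head. The 109 bases between those sites, which hold no CCAAT box, are shown because the pair shares them, on the plus strand of GRCm38.p6, the strand of Abcg8.
Abcg5-Abcg8 (chr17:84683012-84683120, plus strand): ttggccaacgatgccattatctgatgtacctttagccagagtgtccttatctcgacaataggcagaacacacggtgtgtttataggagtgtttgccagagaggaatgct
Abcg5 had 35.8, 55.8 and 64.0 CPM in APAP_MSC, 26.4, 34.4 and 33.8 CPM in APAP_HDF and 38.2, 44.4 and 39.1 CPM in APAP. The lowest APAP_MSC library, library 1, was just above the highest APAP_HDF library and below all APAP libraries. Abcg5 was 1.65-fold higher in APAP_MSC than in APAP_HDF (log2 fold change 0.72 ± 0.19, adjusted p = 0.04). The call was lost without APAP_MSC library 2 or 3, without any single APAP_HDF library, with limma-voom and with the 6 libraries alone, with an adjusted p of up to 0.143. Abcg8 had 41.1, 62.7 and 71.4 CPM in APAP_MSC, 46.5, 47.7 and 61.0 CPM in APAP_HDF and 41.6, 60.1 and 53.1 CPM in APAP. Its groups overlapped and its difference from APAP_HDF did not pass (0.17 ± 0.20, adjusted p = 0.636). The ratio of Abcg5 to Abcg8 CPM was 0.871 to 0.896 in APAP_MSC, 0.553 to 0.721 in APAP_HDF and 0.737 to 0.920 in APAP, so that APAP_HDF lay below both other groups. The difference between the 2 fold changes was not tested. In the GENCODE M21 annotation their exons share 40 bases on opposite strands.

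Abca1, the remaining uptake and transfer genes besides Mylip, and the esterification genes passed in no comparison. Abca1, which loads cholesterol onto apolipoprotein A-I, had 279, 235 and 235 CPM in APAP_MSC, 274, 169 and 203 CPM in APAP_HDF and 238, 235 and 238 CPM in APAP. The APAP libraries were nearly alike and lay within the range of APAP_HDF. Scarb1, the receptor that takes up cholesteryl ester from high-density lipoprotein, lay between 199 and 235 CPM in APAP_MSC, 230 and 263 CPM in APAP_HDF and 205 and 254 CPM in APAP. The sterol transfer protein gene Stard4, the intracellular esterifying enzyme gene Soat2 and the plasma esterifying enzyme gene Lcat had log2 fold changes of -0.10 ± 0.15, 0.26 ± 0.14 and 0.20 ± 0.21 in APAP_MSC against APAP, with adjusted p of 0.313 or more. Their groups overlapped in each comparison.

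Among 49 other genes of sterol biology outside the 32, listed by function, 5 were higher and 2 lower in APAP_MSC than in APAP, beside 2.83% and 3.54% of all tested genes. In APAP_HDF against APAP 0 changed, beside 0%, and in APAP_MSC against APAP_HDF 5 were higher and 2 lower, beside 4.9% and 3.99%. Lipc, hepatic lipase, had the smallest p against APAP, with 52.7, 58.7 and 63.9 CPM in APAP_MSC, 22.4, 29.4 and 32.5 CPM in APAP_HDF and 27.7, 21.3 and 37.5 CPM in APAP (log2 fold change 1.02 ± 0.20, adjusted p = 0.0184). Srebf1, whose product chiefly drives fatty acid synthesis, had 623, 570 and 603 CPM in APAP_MSC, 184, 210 and 122 CPM in APAP_HDF and 274, 297 and 142 CPM in APAP. Its level was above all other libraries in APAP_MSC (1.33 ± 0.27 against APAP, adjusted p = 0.0223), on the opposite side from Srebf2. Mbtps2, the protease that makes the last cut in releasing SREBP, had 7.18, 7.82 and 7.98 CPM in APAP_MSC, 9.63, 8.47 and 9.78 CPM in APAP_HDF and 11.4, 12.4 and 10.5 CPM in APAP (-0.58 ± 0.13, adjusted p = 0.0254). Apoa4, an apolipoprotein, had 605, 528 and 753 CPM in APAP_MSC, 2560, 1635 and 1329 CPM in APAP_HDF and 1493, 1182 and 1147 CPM in APAP, with every APAP_MSC library below the other 6 (-1.02 ± 0.23, adjusted p = 0.0291). By list, 2 of 13 SREBP and LXR genes were higher and 1 lower, 1 of 15 trafficking and storage genes was higher, 2 of 13 lipoprotein genes were higher and 1 lower, and 0 of 8 isoprenoid branch genes changed.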

How the data were processed

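RNA from whole liver was measured in 9 libraries. The RNA was prepared with TRIZOL and the libraries with a Tecan mRNA kit, per the labels' protocols. The tools HISAT2, Subread and DESeq2 and the builds mm39 and GRCm39 are named in the submitters' processing notes, with no version. Whether counting used strand is not given in the sources used here. The authors deposited raw read counts per gene symbol, used here, and scaled counts, not used here. Column headers give the group but no replicate number, so libraries are numbered in column order.

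Counts were tested with edgeR 4.0.16 in R 4.3.3. The 17582 genes kept by filterByExpr held 99.966% of counts. Library sizes were scaled by TMM, with factors from 0.934 to 1.11. The common dispersion gave a biological coefficient of variation of 0.197. All 9 libraries entered 1 quasi-likelihood model of the group, with robust moderation and edgeR's current method rather than its legacy option. The two-sided threshold was 0.05 after Benjamini-Hochberg adjustment. All 32 genes are accounted for. Those past a test and the control genes are given in every library, and the other genes outside the 32 by the 4 smallest p against APAP. Alternatives were other size factors, no filter, DESeq2 1.42.0, limma-voom 3.58.1, fewer libraries and, added after the data were seen, the legacy method. The steps were tested on simulated data. The genes and lists were chosen with earlier results of these data known. Between libraries of a group, the median chi-square of counts was 3.18 to 9.1, against 0.455 for sampling noise alone. Promoters come from RefSeq on GRCm38.p6, not the build of the counts, and gene overlaps from GENCODE M21. Some genes of the pathway are not reported here. Floors are 3 counts, 0.0453 to 0.0567 CPM, and cover counting error only.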

Additional observations from a re-analysis of the deposited data

How the results depend on the processing

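No paired analysis was possible because the columns carry no replicate numbers. In APAP_MSC against APAP, the 4 genes called became 7 with DESeq2 and 7 with only the 6 libraries compared. They ranged from 1 to 10 when single libraries were left out. Over all genes, 1121 calls became 1938 and 1413, and ranged from 97 to 1753, in the same order. In APAP_MSC against APAP_HDF, the 6 called ranged from 1 to 5 when single libraries were left out. They ranged from 4 to 7 in the alternatives that kept all libraries of the comparison. Over all genes, 1563 calls ranged from 361 to 1793 and from 1379 to 2349, in the same order. In APAP_HDF against APAP, 0 were called in each alternative, while over all genes DESeq2 called 69. The 4 genes called against APAP were all among the 7 called with DESeq2 and among the 7 called with the 6 libraries alone. The legacy edgeR method, an alternative chosen after seeing the data, called 4, 0 and 6. No called fold change reversed in any alternative. Another scaling or no filter moved the median of all genes by at most 0.0194 on the log2 scale. Without stated strand, reads of 8 of the 32 genes whose exons overlap a gene on the opposite strand could be mixed with its reads, the largest overlap being 20.9% of the exon bases of Fdft1, with Ctsb. On the same strand, Fdps shares 77.4% of its exon bases with Gm43738 and Tm7sf2 0.826% with Vps51. The causes of these changes were not tested.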
